A study of Homo sapiens and Mus musculus with 24 samples.

Results

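The genes described here are 10 integrin subunits of the intestinal epithelium, the α chains ITGA2, ITGA3, ITGA5, ITGA6 and ITGAV and the β chains ITGB1, ITGB4, ITGB5, ITGB6 and ITGB8. They were taken by symbol, and all 10 were found among the 58051 genes counted in human cells and among the 29307 named genes counted in mice. RNA-seq was performed on Caco-2 cells, a human colorectal adenocarcinoma line, and on purified colonic epithelial cells of mice. The cell lines were WT (n = 4), ΔDNMT3A (n = 4), in which the de novo DNA methyltransferase DNMT3A was deleted by CRISPR-Cas9, and DNMT3A1 (n = 3) and DNMT3A2 (n = 4), in which the long or the short isoform was put back into ΔDNMT3A cells. The ΔDNMT3A cells were a clonal line, and the isoforms carried a TY1 tag and were expressed from a CMV promoter in an integrating piggyBac vector with puromycin selection, so a difference between lines cannot be told apart from a difference between clones. The mice were 12 weeks old and compared Dnmt3a ΔIEC animals (n = 4), in which a Villin-driven Cre removed exons 13 to 17 of Dnmt3a from intestinal epithelial cells, with Dnmt3a fl/fl controls that carried the floxed alleles (n = 4). The labels do not state that the Caco-2 replicates were separate cultures, so p-values for the cell lines cover the spread between these libraries.

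Integrins are cell surface receptors made of an α and a β chain, and they connect the extracellular matrix to the cytoskeleton. α2β1 binds collagens, α3β1 and α6β1 bind laminins, and α5β1 binds fibronectin. α6β4 sits in hemidesmosomes, where the long cytoplasmic tail of β4 is tied to keratin filaments through plectin. αV pairs with several β chains. With β5 it binds vitronectin, while αVβ6 and αVβ8 bind the latency peptide of TGF-β and can release the active cytokine. In the gut these receptors hold enterocytes on the basement membrane and serve in the migration of cells over a wound.

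Between 22104408 and 42161299 reads were assigned to genes in the Caco-2 libraries and between 16943626 and 24921248 in the mouse libraries. Levels are given in CPM, read counts scaled to library size, as the mean ± SD. WT cells held 64.6 ± 2.27 CPM of DNMT3A and ΔDNMT3A cells 20.7 ± 1.22, while the DNMT3A1 line ranged from 36.7 to 39.1 and the DNMT3A2 line was at 21.9 ± 1.40, so by whole-gene counts the DNMT3A2 line differed from the deleted line by less than the spread between libraries. These are RNA counts. At the protein level, the paper reports from immunoblots that DNMT3A was lost in ΔDNMT3A cells and that both isoforms were expressed again. In mice Dnmt3a was at 93.9 ± 7.70 CPM in fl/fl and 46.1 ± 3.30 in ΔIEC cells. All 10 colon epithelial markers were detected in each Caco-2 line, and the leukocyte marker PTPRC was at 0 in WT, ΔDNMT3A and DNMT3A2 cells. The 11 leukocyte markers summed to 6.51 to 7.61 CPM in WT libraries and to 19.1 to 22.9 CPM after the deletion. They summed to 15.92 to 17.04 CPM with DNMT3A1 and to 12.6 to 14.8 CPM with DNMT3A2. Of these, CSF1R alone was at 4.85 ± 0.258 CPM in WT, 13.7 ± 0.538 in DNMT3A1 and 12.2 ± 1.05 in DNMT3A2 cells. The 12 stromal and endothelial markers summed to 329.7 to 346.5 CPM in WT and 266.7 to 308.2 CPM in ΔDNMT3A libraries. With DNMT3A1 they summed to 242.2 to 258.3 CPM and with DNMT3A2 to 260.6 to 301.0 CPM. Of these 12 markers, PDGFRA alone was at 158 ± 2.49 CPM and TAGLN at 138 ± 8.64 CPM in WT cells, while CDH5 and KDR were at 0. The part of these shifts in the results was not tested. Since the samples are bulk RNA, fewer expressing cells cannot be told apart from less RNA per cell.

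DNMT3A methylates the cytosine of CG dinucleotides. The upstream sequence is shown for the 3 genes that had a window wholly outside the gene as it was counted. Of these, ITGA6 rose after the deletion, ITGB5 fell and ITGAV moved least of the called genes. Each sequence is the 250 bases before a RefSeq start site (GRCh38.p14) that lie wholly outside the gene as it was counted, on the strand of the gene from 5′ to 3′, with every CG in capitals.
ITGA6: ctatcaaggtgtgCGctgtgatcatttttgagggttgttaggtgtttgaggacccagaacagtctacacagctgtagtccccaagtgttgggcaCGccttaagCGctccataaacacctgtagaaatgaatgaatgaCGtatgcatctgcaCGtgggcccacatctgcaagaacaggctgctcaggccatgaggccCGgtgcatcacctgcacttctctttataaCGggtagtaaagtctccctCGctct
ITGB5: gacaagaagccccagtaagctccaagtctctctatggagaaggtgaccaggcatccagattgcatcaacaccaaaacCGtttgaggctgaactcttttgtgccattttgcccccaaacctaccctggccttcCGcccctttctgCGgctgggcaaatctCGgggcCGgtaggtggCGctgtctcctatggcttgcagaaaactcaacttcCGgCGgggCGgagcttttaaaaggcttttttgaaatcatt
ITGAV: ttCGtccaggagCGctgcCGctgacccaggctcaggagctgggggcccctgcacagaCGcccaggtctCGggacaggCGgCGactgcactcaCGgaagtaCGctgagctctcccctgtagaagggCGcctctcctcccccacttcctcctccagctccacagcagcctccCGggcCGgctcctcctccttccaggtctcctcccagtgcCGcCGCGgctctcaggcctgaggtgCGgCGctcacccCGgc
The window of ITGA6 lies at chr2:172427086-172427335 (+ strand) and holds 8 CG, that of ITGB5 at chr3:124901419-124901668 (- strand) holds 9, and that of ITGAV at chr2:186589806-186590055 (+ strand) holds 18. The median over 35116 promoter windows of this length was 11. The Sp1-type box GGGCGG and the box TATAAA were searched on both strands. GGGCGG occurred in the ITGB5 window and in 42.6% of all windows. TATAAA occurred in the ITGA6 window, on the strand opposite to the gene, and in 10.7% of all windows. The table held no entry for ITGA3 or ITGB4. All 3 genes have further RefSeq start sites, whose windows hold 30 CG for ITGA6, 19 and 23 for ITGB5 and 1 for ITGAV. For the other genes the windows overlapped the counted gene. They held 12 CG for ITGA5, 26 for ITGA2, 21 for ITGB8, 32 and 4 for ITGB1 and 0 for ITGB6. The DNA methylation of these windows was not analysed here.

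WT Caco-2 cells expressed all 10 genes, over a wide range of levels. To compare genes, CPM was divided by the counted exon length. ITGB1, the β chain shared by most matrix receptors, was highest at 56 ± 1.14 CPM per kb (SD, n = 4). ITGB5 (22.6 ± 0.777) and ITGAV (22.3 ± 1.08), the vitronectin receptor pair, followed at levels that did not differ beyond their spread. ITGA6 was at 18.6 ± 0.538, ITGA2 between 9.62 and 10.6, ITGB4 at 4.92 ± 0.183, ITGA5 at 3.61 ± 0.113 and ITGA3 at 1.40 ± 0.0906 CPM per kb. The TGF-β-binding chains were lowest, with ITGB8 at 0.156 ± 0.0234 and ITGB6 at 0.0498 ± 0.0144. ITGB6 was measured from few reads in these cells, so its values carry the widest error of the 10 genes.

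**Figure D1:**
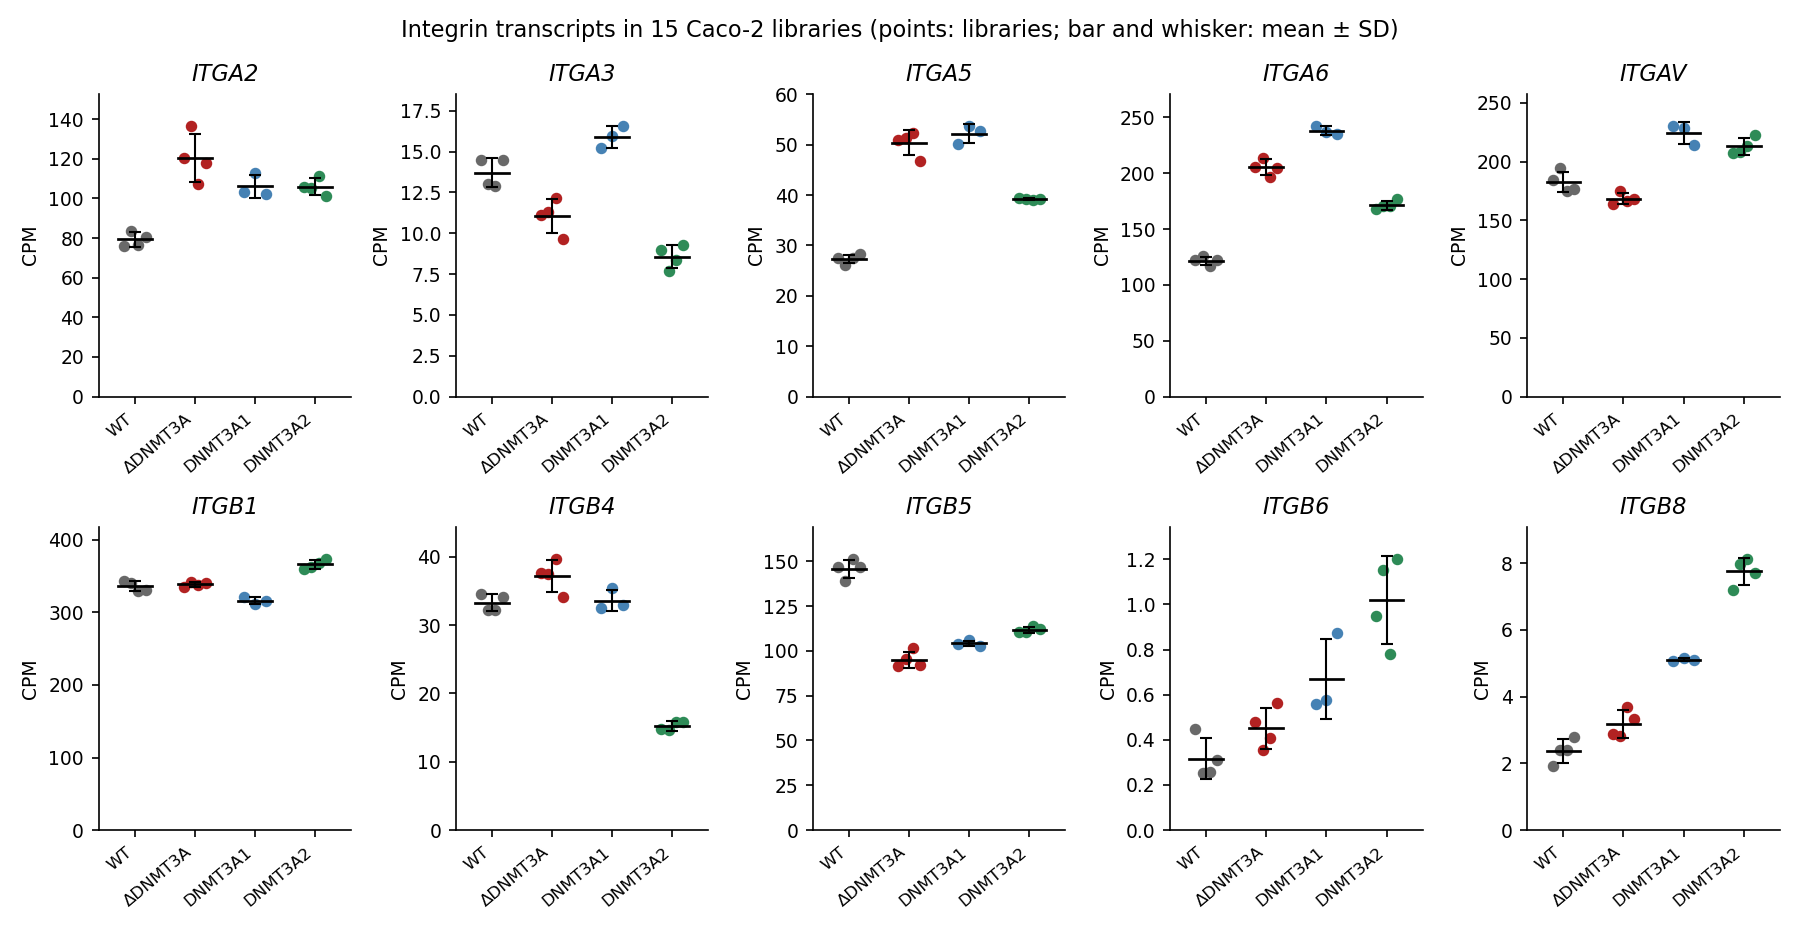
CPM of the 10 integrin genes in each Caco-2 library, 1 panel a gene, with an axis that starts at 0; points are libraries (n = 4, and n = 3 for DNMT3A1), the horizontal bar is the mean and the whisker the SD. ITGA2, ITGA5 and ITGA6 lie above WT in each other line, ITGB5 lies below WT in each other line, and ITGB4 is lowest in DNMT3A2.

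The first comparison asked how deletion of DNMT3A changed integrin expression. In ΔDNMT3A cells 8 of the 10 genes passed an adjusted p of 0.05 in edgeR's quasi-likelihood test (Benjamini-Hochberg over 16654 genes), 5 higher and 3 lower. Over all genes tested, 62.4% passed, 31.4% higher and 31.1% lower, so calls were common among all genes and the count is given as a description of the 10 genes. The median absolute log2 fold change was 0.44 for the integrins and 0.24 for all genes. None of the 10 reached a log2 fold change of 1, which 8.49% of all genes did. The libraries of the lines did not overlap for 6 integrins, compared with 55.4% of all genes.

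Among the laminin, collagen and fibronectin receptors, the chains that rose were ITGA6, ITGA5 and ITGA2. ITGA6 (ENSG00000091409, GRCh38 chr2:172427354-172506282), the α chain of the laminin receptors, was at 122, 126, 117 and 123 CPM in the WT libraries and at 206, 214, 197 and 205 CPM in the ΔDNMT3A libraries. All 4 deleted libraries lay well above all WT libraries, a rise of 1.67-fold (log2 fold change 0.74 ± 0.03 SE, edgeR adjusted p = 3.86e-25). ITGA5 (chr12:54395261-54419460), which with β1 forms the main fibronectin receptor, was at 27.5, 26.2, 27.4 and 28.3 CPM in WT and at 51.04, 51.4, 52.3 and 46.7 CPM in ΔDNMT3A libraries. This was the strongest rise of the 10 genes, 1.83-fold (log2 fold change 0.87 ± 0.04, edgeR adjusted p = 2.72e-22). ITGA2 (chr5:52989326-53094779), the α chain of the collagen receptor α2β1, was at 76.1, 83.8, 76.6 and 80.7 CPM in WT and at 120.2, 136.6, 107.2 and 117.8 CPM in ΔDNMT3A libraries. The groups did not overlap here either, although the ΔDNMT3A libraries were more scattered (1.51-fold, log2 fold change 0.59 ± 0.08, edgeR adjusted p = 0.000423).

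ITGB1, the β chain shared by α2, α5 and α6, did not pass. It had 336 ± 6.85 CPM in WT cells compared with 339 ± 3.00 CPM after deletion, and the 95% interval of the log2 difference ran from -0.05 to 0.05 (edgeR adjusted p = 0.972). ITGB4 (ENSG00000132470, chr17:75721328-75757818), the hemidesmosome chain, went from 33.3 ± 1.24 CPM to 37.2 ± 2.30 CPM on deletion, a small rise with overlapping libraries (log2 fold change 0.15 ± 0.04, edgeR adjusted p = 0.00298). It overlaps GALK1 on the opposite strand, and the Caco-2 counts used strand. ITGA3 (chr17:50055968-50090481), the α chain of the laminin receptor α3β1, was at 14.5, 13.01, 12.9 and 14.5 CPM in WT and at 11.1, 11.3, 12.1 and 9.67 CPM in ΔDNMT3A libraries. It fell in all 4 deleted libraries (log2 fold change -0.32 ± 0.07, edgeR adjusted p = 5.69e-05), while ITGA6, which binds the same class of ligand, rose.

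Of the αV group, ITGB5 showed the clearest loss. This chain of the vitronectin receptor αVβ5 (ENSG00000082781, chr3:124761948-124901418) was at 146.9, 139.0, 151.0 and 146.6 CPM in WT and at 91.3, 95.2, 101.4 and 92.0 CPM in ΔDNMT3A libraries, without overlap (log2 fold change -0.63 ± 0.03, edgeR adjusted p = 1.81e-21). ITGAV itself fell slightly, from 183 ± 8.87 to 168 ± 4.71 CPM, with libraries that touched at 175 CPM (log2 fold change -0.13 ± 0.03, edgeR adjusted p = 0.000367). ITGB8 (ENSG00000105855, chr7:20330702-20415754), whose αVβ8 dimer binds latent TGF-β, was at 1.91, 2.39, 2.39 and 2.78 CPM in WT and at 2.87, 2.81, 3.69 and 3.32 CPM in ΔDNMT3A libraries. Each deleted library was above each WT library (log2 fold change 0.39 ± 0.13, edgeR adjusted p = 0.00736), but without WT replicate 1 the adjusted p was 0.0549. ITGB6 had 0.316 ± 0.0915 CPM in WT cells compared with 0.451 ± 0.0911 CPM after deletion, with overlapping libraries, and did not pass (log2 fold change 0.48, 95% interval -0.14 to 1.11, edgeR adjusted p = 0.175). The per-length order of the 10 genes differed between the lines. ITGA6 went from rank 4 to rank 2, and ITGB5 from rank 2 to rank 5 in ΔDNMT3A cells.

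**Figure D2:**
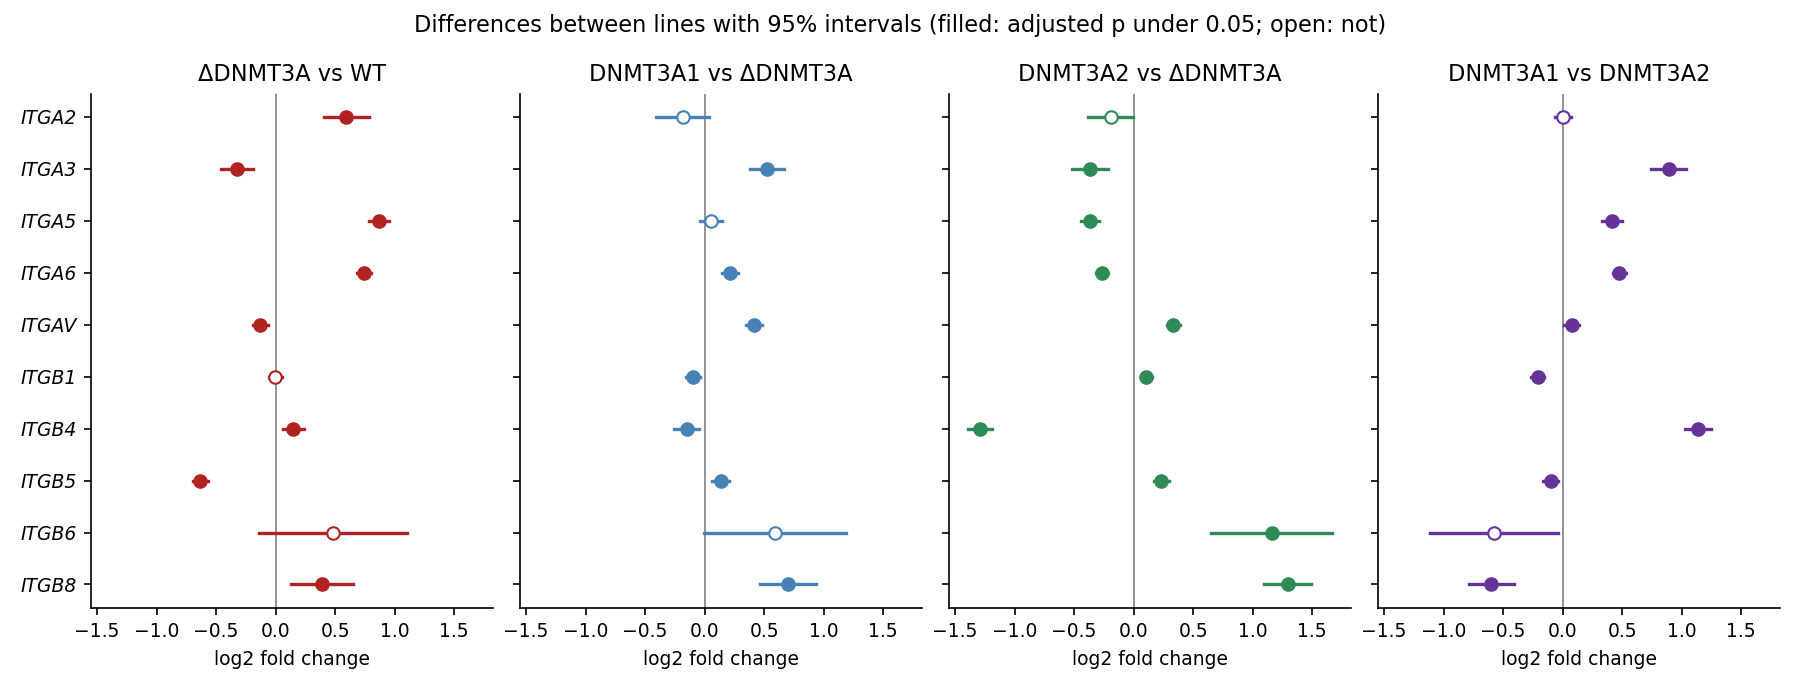
Log2 fold changes of the 10 integrin genes in 4 comparisons of Caco-2 lines, with 95% intervals as horizontal lines; filled points passed an adjusted p of 0.05 in edgeR and open points did not. ITGB4 lies at -1.29 for DNMT3A2 against ΔDNMT3A and at 1.14 for DNMT3A1 against DNMT3A2, and ITGB6 has the widest intervals.

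The isoform lines were next set against the deleted line and against WT. These comparisons share libraries with each other and with the first, so their results are given side by side and are not independent. DNMT3A1 differed from ΔDNMT3A in 7 of 10 genes, 5 higher and 2 lower, while 60.8% of all genes passed (30.4% higher and 30.4% lower). DNMT3A2 differed from ΔDNMT3A in 9 of 10, 5 higher and 4 lower, while 67.9% of all genes passed (33.7% higher and 34.2% lower). Against WT, 9 of 10 genes differed in DNMT3A1, 7 higher and 2 lower (65.4% of all genes, 32.7% higher and 32.7% lower), and 10 of 10 in DNMT3A2, 7 higher and 3 lower (68.8%, 34.3% higher and 34.5% lower). The higher calls against WT, 7 of 10 in both isoform lines, were a larger share than among all genes, and no test was made on these counts. A log2 fold change of 1 against ΔDNMT3A was reached by 0 integrins in DNMT3A1 (8.29% of all genes) and by 3 in DNMT3A2 (11.9%), namely ITGB4, ITGB6 and ITGB8. Against WT it was reached by ITGB6 and ITGB8 in DNMT3A1 (12% of all genes) and by ITGB4, ITGB6 and ITGB8 in DNMT3A2 (11.1%). The median absolute log2 fold change of the integrins against ΔDNMT3A was 0.20 in DNMT3A1 (0.27 for all genes) and 0.35 in DNMT3A2 (0.29). Against WT this median was 0.45 in DNMT3A1 (0.30 for all genes) and 0.49 in DNMT3A2 (0.29).

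A gene was counted as restored when it had changed in ΔDNMT3A cells, changed back in an isoform line, and was no longer past WT in the direction of the deletion. By this count 3 of the 8 changed integrins were restored in DNMT3A1 (34.1% of all changed genes) and 2 in DNMT3A2 (41.1%). In DNMT3A1 these were ITGA3, ITGAV and ITGB4. ITGA3 was at 15.2, 16.0 and 16.6 CPM in DNMT3A1 libraries, above each WT library, so it went past the WT level (log2 fold change against WT 0.21 ± 0.07, edgeR adjusted p = 0.00495). ITGAV did likewise, at 230.4, 228.8 and 213.9 CPM compared with 183 ± 8.87 in WT (log2 fold change 0.29 ± 0.03, edgeR adjusted p = 3.29e-10). ITGB4 in DNMT3A1 cells (33.6 ± 1.59 CPM) did not differ detectably from WT (95% interval of the log2 difference -0.09 to 0.11, edgeR adjusted p = 0.885), although its decrease from ΔDNMT3A had an adjusted p of 0.0141 that became 0.0821 in edgeR without DNMT3A1 replicate 1.

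In DNMT3A2 cells the restored genes were ITGAV and ITGB4, and both passed beyond WT. ITGB4 was at 14.7, 14.6, 15.9 and 15.8 CPM in the DNMT3A2 libraries, compared with 37.7, 37.5, 39.6 and 34.1 CPM in the ΔDNMT3A and 34.6, 32.2, 32.3 and 34.1 CPM in the WT libraries. All 4 DNMT3A2 libraries lay far below every library of the other lines, and the log2 fold change was -1.29 ± 0.05 against ΔDNMT3A (edgeR adjusted p = 1.51e-22) and -1.14 ± 0.05 against WT (edgeR adjusted p = 3.52e-28). ITGAV was at 213 ± 7.14 CPM (log2 fold change against ΔDNMT3A 0.33 ± 0.03, edgeR adjusted p = 1.02e-13). ITGA3 moved the other way from its course in DNMT3A1. It was at 8.97, 7.66, 8.36 and 9.27 CPM in DNMT3A2 libraries, below each ΔDNMT3A library (log2 fold change -0.37 ± 0.08, edgeR adjusted p = 4.96e-05).

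The 3 α chains that rose on deletion stayed above WT in both isoform lines. ITGA6 went up further in DNMT3A1, to 242, 237 and 236 CPM (log2 fold change against WT 0.97 ± 0.03, edgeR adjusted p = 5.97e-32), and came part of the way down in DNMT3A2, to 168, 171, 170.3 and 177 CPM (log2 fold change against WT 0.48 ± 0.03, edgeR adjusted p = 7.19e-24). ITGA5 was at 52.2 ± 1.80 CPM in DNMT3A1, not detectably different from ΔDNMT3A (95% interval -0.04 to 0.15, edgeR adjusted p = 0.336), and at 39.2 ± 0.196 CPM in DNMT3A2, between ΔDNMT3A and WT without overlap with either. ITGA2 was at 106 ± 5.81 CPM in DNMT3A1 and 106 ± 4.20 CPM in DNMT3A2, above WT in both (log2 fold changes 0.42 ± 0.04 and 0.40 ± 0.03). Its difference from ΔDNMT3A missed the threshold in both lines (edgeR adjusted p = 0.125 and 0.0636), yet passed without ΔDNMT3A replicate 3 (log2 fold changes -0.24 and -0.25, edgeR adjusted p = 0.000893 and 0.000927). It also passed without ΔDNMT3A replicate 2, at a smaller size (-0.12 and -0.13, edgeR adjusted p = 0.0216 and 0.00467, compared with -0.18 and -0.19 with all libraries).

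ITGB5 rose from its low point in ΔDNMT3A cells only in part. It was at 103.9, 105.8 and 102.9 CPM in DNMT3A1 and at 110.8, 110.3, 114.0 and 112.3 CPM in DNMT3A2 libraries, above the deleted line but below every WT library (log2 fold changes against WT -0.49 ± 0.03 and -0.40 ± 0.03, edgeR adjusted p = 7.69e-19 and 4.94e-20).

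ITGB8 rose step by step across the lines. It was at 5.06, 5.17 and 5.10 CPM in DNMT3A1 and at 7.19, 7.98, 8.11 and 7.71 CPM in DNMT3A2 libraries, and none of the 4 lines overlapped with another. Against WT it was 2.14-fold higher in DNMT3A1 (log2 fold change 1.1 ± 0.12, edgeR adjusted p = 3.46e-11) and 3.22-fold higher in DNMT3A2 (log2 fold change 1.68 ± 0.10, edgeR adjusted p = 2.79e-21). Both isoform lines were thus further from WT than the deleted line was. ITGB6 showed the same order of means at a lower level. It was at 0.559, 0.575 and 0.874 CPM in DNMT3A1 and at 0.949, 1.15, 0.779 and 1.199 CPM in DNMT3A2 libraries. It was 3.12-fold higher than WT in DNMT3A2 (log2 fold change 1.64 ± 0.28, edgeR adjusted p = 6.18e-07) and 2.11-fold higher in DNMT3A1 (edgeR adjusted p = 0.00315), the latter with an adjusted p of 0.0699 without DNMT3A1 replicate 4.

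The isoforms were compared directly between the DNMT3A1 and DNMT3A2 lines. Of the 10 genes 8 differed, 5 higher and 3 lower in DNMT3A1 (68.5% of all genes passed, 34.5% higher and 33.9% lower). The lines did not overlap for 7 of them, compared with 66.6% of all genes. The median absolute log2 fold change was 0.446 for the integrins and 0.335 for all genes. The hemidesmosome chain ITGB4 differed most, 2.20-fold higher in DNMT3A1 (log2 fold change 1.14 ± 0.05, edgeR adjusted p = 9.06e-23), and was the single integrin past a log2 fold change of 1, which 13.1% of all genes passed. ITGA3 was 1.85-fold higher (log2 fold change 0.89 ± 0.07, edgeR adjusted p = 1.20e-14), ITGA6 1.39-fold higher (0.48 ± 0.03, edgeR adjusted p = 1.56e-19) and ITGA5 1.33-fold higher (0.41 ± 0.04, edgeR adjusted p = 2.51e-12). ITGB8 was lower in DNMT3A1 (log2 fold change -0.60 ± 0.09, edgeR adjusted p = 2.26e-07), and so were ITGB1, the partner of α3, α5 and α6 (-0.21 ± 0.03, edgeR adjusted p = 4.32e-09), and ITGB5 (-0.10 ± 0.03). ITGAV differed by 0.08 ± 0.03 with overlapping libraries, and its call was lost when replicate 1 or 2 of either line was left out (edgeR adjusted p from 0.0517 to 0.166). It was also lost with DESeq2 (adjusted p = 0.0567), without a filter on low counts (edgeR adjusted p = 0.103) and with the trend over gene length removed (0.03, edgeR adjusted p = 0.327). ITGA2 did not differ detectably (95% interval -0.07 to 0.07, edgeR adjusted p = 0.94).

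Genes along a chromosome can shift together between clonal lines, so the median change of the 50 nearest tested genes, 25 on each side, was set beside each integrin. In ΔDNMT3A cells against WT it was under 0.5 times the size of the change, or of the other sign, for the 8 called genes. It was of the same sign and at least 0.5 times the size in 13 of the other called differences between lines. The share over all called genes was not computed, and a small change meets this rule more easily. 4 of these concerned ITGA5 and ITGA6: the neighbours of ITGA5 had a median log2 fold change of -0.33 in DNMT3A2 against ΔDNMT3A and 0.50 in DNMT3A1 against DNMT3A2, and those of ITGA6 0.17 in DNMT3A1 against ΔDNMT3A and 0.31 in DNMT3A2 against WT. In DNMT3A1 against ΔDNMT3A the neighbour median was -0.13 for ITGB4, whose own change of -0.15 made it count as restored, and 0.10 for ITGB5. In DNMT3A2 against WT it was 0.22 for ITGA2 and 0.15 for ITGAV. ITGB1 met the rule in all 5 comparisons that involve an isoform line. Its neighbour medians were between -0.49 and 0.25 and its own changes between -0.21 and 0.11. The part of such shifts in the differences was not tested.

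Libraries had been run on 2 lanes, numbered 5 and 6 in the labels of the files, with each line on both. Of 51 called integrin differences between Caco-2 lines, 50 had the same sign within both lanes. The calls were made from these same libraries, so the count describes the split and is not a separate check. The share over all called genes was not computed. The exception was ITGAV between the isoform lines, with log2 ratios of 0.14 and -0.03. ITGB4 in DNMT3A2 against ΔDNMT3A was at -1.36 and -1.22 within the lanes, and ITGA6 in ΔDNMT3A against WT at 0.76 and 0.74.

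Because α and β chains act as pairs, their transcript ratios were computed per library from CPM per kb. No test was made on these ratios. ITGB4 per ITGA6, the chains of the hemidesmosome receptor α6β4, was 0.264 ± 0.0113 in WT cells (lowest 0.248, highest 0.273). It was 0.175 ± 0.0144 after deletion (0.161 to 0.195), 0.136 ± 0.0075 with DNMT3A1 (0.130 to 0.144) and 0.0859 ± 0.00308 with DNMT3A2 (0.0826 to 0.0900). The 4 lines did not overlap, and ITGA6 transcripts outnumbered those of ITGB4 in each library. Among the 5 α chains, the share of ITGA6 was 33.3% ± 0.304 in WT and 41.9% ± 0.492 in ΔDNMT3A cells, while that of ITGAV was 39.8% ± 0.86 and 27.4% ± 0.641. In DNMT3A2 cells the shares were 36.6% ± 0.422 and 36.2% ± 0.589. ITGB5 made up 99.1% ± 0.0769 of the summed β5, β6 and β8 transcripts in WT and 96.3% ± 0.221 in DNMT3A2 cells. The share of ITGB8 was 0.685% ± 0.105 in WT cells, 1.39% ± 0.14 after deletion, 2.03% ± 0.0155 with DNMT3A1 and 2.84% ± 0.13 with DNMT3A2, so ITGB5 was the most abundant of these 3 β transcripts in each line. ITGB1, which also pairs with αV, was not part of this sum.

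**Figure D3:**
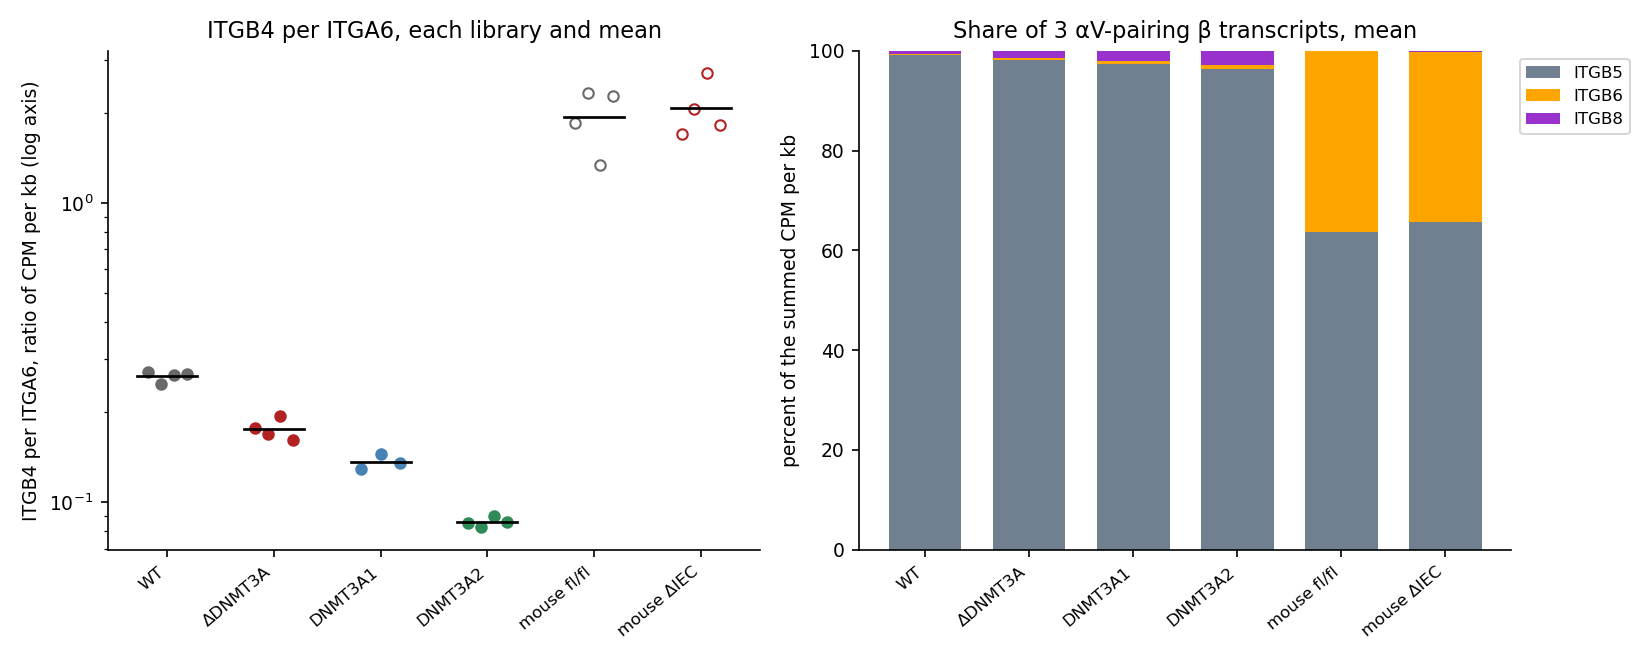
Left, the ratio of ITGB4 to ITGA6 in CPM per kb on a log axis, with points for libraries or mice and a bar for the mean; right, the mean share of ITGB5, ITGB6 and ITGB8 in their summed CPM per kb. The ratio is 0.264 in WT and 0.0859 in DNMT3A2 cells and 1.95 in fl/fl mice, where ITGB6 makes up 36.1% of the 3 β chains.

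The other genes of integrin adhesion were described from fixed lists. The partners of α6β4 in the hemidesmosome all rose in ΔDNMT3A cells, 4 of 4 (31.4% of all genes rose). DST, whose dystonin isoforms include the plaque protein that links keratin, counted here over the whole gene, had a log2 fold change of 1.35 ± 0.07 (edgeR adjusted p = 9.56e-07), COL17A1, the collagen of the plaque, 1.37 ± 0.29 at under 1 CPM (edgeR adjusted p = 5.87e-05), PLEC, or plectin, 0.51 ± 0.07 (edgeR adjusted p = 0.000608) and CD151, a tetraspanin bound to laminin receptors, 0.14 ± 0.04 (edgeR adjusted p = 0.0052). In DNMT3A2 against ΔDNMT3A, 3 of the 4 fell (34.2% of all genes fell), as ITGB4 did, with DST at -1.23 ± 0.07, COL17A1 at -1.99 ± 0.36 and CD151 at -0.56 ± 0.03. In DNMT3A1 against ΔDNMT3A only CD151 passed, and it was higher. Against WT in DNMT3A2, 2 of 3 tested partners were higher and 1 lower (34.3% and 34.5% of all genes). PLEC was at 0.40 ± 0.03, DST at 0.12 ± 0.03 and CD151 at -0.425 ± 0.03, while ITGB4 was at -1.14 ± 0.05. In DNMT3A1 all 4 partners were higher than WT (32.7% of all genes), while ITGB4 did not pass. The PLEC call there was lost with lane as a covariate (edgeR adjusted p = 0.0729).

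Laminins are the ligands of α3β1, α6β1 and α6β4. Of 9 laminin chains tested in ΔDNMT3A against WT, 3 rose and 5 fell (31.4% and 31.1% of all genes). LAMA3 and LAMB3, chains of the hemidesmosome ligand laminin-332, did not move alike: LAMA3 rose by 0.79 ± 0.04 on the log2 scale (edgeR adjusted p = 4.81e-21), while LAMB3 was lower (-0.25 ± 0.03, edgeR adjusted p = 6.22e-10). LAMA5, of the laminin-511 of the basement membrane, was lower as well (-0.37 ± 0.03, edgeR adjusted p = 2.79e-09), and the lowest called chain was LAMC3 (-1.20 ± 0.37), at under 1 CPM. Between the isoform lines 7 of 8 laminin chains were higher in DNMT3A1 (34.5% of all genes). LAMA3 (log2 fold change 0.50 ± 0.04) and LAMB3 (0.48 ± 0.03) were among them. Of the laminin receptor chains, ITGA3, ITGA6 and ITGB4 were higher in DNMT3A1 and ITGB1 was lower. LAMA5 was the exception at -0.22 ± 0.08, a call lost when DNMT3A1 replicate 1 or any DNMT3A2 replicate was left out (edgeR adjusted p from 0.0742 to 0.124).

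Of 12 other matrix ligands tested in ΔDNMT3A against WT, 5 rose and 7 fell (31.4% and 31.1% of all genes). TNC, or tenascin-C, a matrix protein of wounds, had the largest rise (log2 fold change 2.44 ± 0.04, edgeR adjusted p = 1.75e-27), and COL4A6, a basement membrane collagen chain, the largest fall (-4.29 ± 0.06, edgeR adjusted p = 1.03e-41). FN1, the fibronectin bound by α5β1, fell by 0.50 ± 0.03 (edgeR adjusted p = 1.86e-19) while its receptor chain ITGA5 rose. VTN, the vitronectin bound by αVβ5, rose by 1.11 ± 0.03 (edgeR adjusted p = 1.68e-31) while ITGB5 fell. In DNMT3A2 against ΔDNMT3A each of these 4 genes had the opposite sign: FN1 and ITGB5 were higher (1.08 ± 0.02 and 0.23 ± 0.03), and VTN and ITGA5 were lower (-2.46 ± 0.03 and -0.37 ± 0.04). Both comparisons share the ΔDNMT3A libraries. Against WT, FN1 and ITGA5 were both higher in DNMT3A2 (0.58 ± 0.02 and 0.50 ± 0.04) and in DNMT3A1 (0.35 ± 0.07 and 0.93 ± 0.05). VTN and ITGB5 were both lower than WT in DNMT3A2 (-1.35 ± 0.02 and -0.40 ± 0.03). In DNMT3A1, VTN was higher than WT (0.13 ± 0.03) and ITGB5 lower (-0.49 ± 0.03).

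Of 8 genes of latent TGF-β and its receptors, 2 rose and 5 fell in ΔDNMT3A against WT (31.4% and 31.1% of all genes). TGFB1, which encodes the cytokine whose latency peptide αVβ6 and αVβ8 bind, rose by 0.29 ± 0.07 (edgeR adjusted p = 0.000528), and TGFB2 had the largest fall (-0.96 ± 0.08, edgeR adjusted p = 1.83e-14). Between the isoform lines 5 were higher and 2 lower in DNMT3A1 (34.5% and 33.9% of all genes). LTBP1, which tethers latent TGF-β to the matrix, was higher (0.70 ± 0.03, edgeR adjusted p = 2.66e-23), TGFB1 was higher (0.68 ± 0.10, edgeR adjusted p = 6.73e-08) and TGFB3 was lower (-1.61 ± 0.07, edgeR adjusted p = 4.93e-25).

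The cytoplasmic proteins that activate integrins or bind them to actin were tested as 20 genes. In ΔDNMT3A against WT 13 rose and 4 fell (31.4% and 31.1% of all genes). In DNMT3A2 against ΔDNMT3A 1 rose and 16 fell (33.7% and 34.2%), and in DNMT3A1 against DNMT3A2 15 were higher and 2 lower (34.5% and 33.9%). The first of these counts was led by TNS4, a tensin that went from 0.110 ± 0.0462 CPM to 1.54 ± 0.301 CPM, and its largest fall was TNS1 (-0.70 ± 0.06). ILK, the scaffold bound to β1 and β3 tails, was higher after deletion (0.31 ± 0.04, edgeR adjusted p = 7.44e-10) and lower in DNMT3A2 against ΔDNMT3A (-0.63 ± 0.03, edgeR adjusted p = 1.43e-18). FERMT1, or kindlin-1, the epithelial activator of integrins, was lower after deletion (-0.16 ± 0.03, edgeR adjusted p = 0.000104), and TLN1, or talin-1, did not pass (log2 fold change 0.06, edgeR adjusted p = 0.0699). TLN1 passed in several alternatives. These include removal of the trend over gene length (0.103, edgeR adjusted p = 0.00159) and leaving out ΔDNMT3A replicate 1 (0.079, edgeR adjusted p = 0.0305).

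Of 13 adhesion kinases and their partners 5 rose and 6 fell in ΔDNMT3A against WT (31.4% and 31.1% of all genes). PTK2, the focal adhesion kinase, differed by -0.08 ± 0.03 (edgeR adjusted p = 0.0151), a call lost without WT replicate 1 (edgeR adjusted p = 0.0839) and with the trend over gene length removed (-0.03, edgeR adjusted p = 0.444). BCAR1, a FAK substrate, rose most (0.47 ± 0.04) and DOCK1 fell most (-0.67 ± 0.03). Of 10 inhibitors and trafficking genes 4 rose and 5 fell, read against the same shares. SNX17, which recycles β1 integrin from endosomes, had the largest rise (1.41 ± 0.03, edgeR adjusted p = 5.01e-35) and against WT had a log2 fold change of 0.02 ± 0.03 in DNMT3A2 (edgeR adjusted p = 0.642) and of 1.24 ± 0.03 in DNMT3A1 (edgeR adjusted p = 2.06e-36), while KRIT1 had the largest fall (-0.41 ± 0.04). Of the 8 other integrin subunits above the count filter 3 rose and 3 fell, led by ITGA11 (2.64 ± 0.33, at under 1 CPM) and ITGA9 (-0.92 ± 0.05).

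ITGB8 had the widest span of the 10 genes over the 4 lines, 1.71 on the log2 scale between the lowest and the highest line mean, followed by ITGB6 (1.69) and ITGB4 (1.29). ITGB1 had the narrowest (0.21). Over the 15 libraries and 13742 genes with a mean of at least 1 CPM, the pattern most like that of ITGB8 by Pearson's r was that of MFAP3L (r = 0.985), followed by GDF15 (0.983), VCAN (0.982), USP28 (0.981) and ZFP90 (0.978). All 5 rose in the order WT, ΔDNMT3A, DNMT3A1, DNMT3A2. VCAN, which encodes the matrix proteoglycan versican, was at 7.43, 16.8, 53.9 and 191 CPM in these lines, and GDF15, a TGF-β superfamily member, at 8.56, 11.8, 16.4 and 24.0 CPM. The libraries fall into 4 lines, so these r values describe the order of the lines and were not tested.

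The mouse comparison asked whether loss of Dnmt3a from the intestinal epithelium changed the same genes in vivo. All 10 genes were expressed above the count filter, and 0 of 10 passed an adjusted p of 0.05 in edgeR's quasi-likelihood test over 14626 genes, of which 0.691% passed. At an unadjusted p under 0.05 there was 1 integrin (14.0% of all genes), and DESeq2 also called 0. The median absolute log2 fold change was 0.151 for the integrins and 0.154 for all genes. The 95% intervals for the genes other than Itgb8 lay between -0.69 and 0.41 on the log2 scale, so a log2 change of 1 in either direction lies outside them for these 9 genes.

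Itga3 (GRCm38 chr11:95044474-95076801) was the gene with the lowest p. It was at 237.6, 245.4, 228.2 and 238.7 CPM in fl/fl and at 195.7, 197.1, 209.1 and 215.3 CPM in ΔIEC mice. All 4 ΔIEC mice were below all 4 fl/fl mice, which was so in either direction for 10.3% of all genes, but the difference did not pass the correction (log2 fold change -0.22 ± 0.08, edgeR adjusted p = 0.288). Itga6 was at 293, 271, 376 and 257 CPM in fl/fl and at 284, 239.8, 211 and 274 CPM in ΔIEC mice, with overlap (95% interval -0.57 to 0.07, edgeR adjusted p = 0.465). This interval does not reach the rise of 0.74 seen in Caco-2 cells after deletion. For Itgb5, at 73.1 ± 3.60 and 80.9 ± 13.8 CPM, the interval of -0.11 to 0.41 likewise does not reach the log2 fold change of -0.63 in Caco-2 cells, and for Itga5, at 43.7 ± 12.9 and 36.6 ± 6.46 CPM, the interval of -0.69 to 0.18 does not reach the rise of 0.87. The intervals of Itga3 (-0.40 to -0.03), Itgav (-0.30 to 0.32) and Itgb8 (-0.10 to 1.31) include the Caco-2 values of -0.32, -0.13 and 0.39. Those of Itga2 (-0.59 to 0.28) and Itgb4 (-0.39 to 0.10) do not reach the Caco-2 values of 0.59 and 0.15. The difference between the species was not tested.

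Itgb8 had the largest estimate, at 0.462, 0.683, 0.613 and 0.405 CPM in fl/fl and 1.05, 0.442, 0.866 and 0.898 CPM in ΔIEC mice. The groups overlapped through ΔIEC replicate 2, and the interval was wide (log2 fold change 0.61, -0.10 to 1.31, edgeR adjusted p = 0.423). Itgb1, Itgb6 and Itgav had log2 fold changes between -0.02 and 0.01. Itgb4 was at 439 ± 42.6 and 397 ± 31.4 CPM (edgeR adjusted p = 0.593) and Itga2 at 69.6 ± 20.0 and 62.5 ± 10.8 CPM (edgeR adjusted p = 0.767). The mouse counts did not use strand, so reads of Itgav and Itgb4 cannot be told apart from those of the antisense genes Gm13684 and B230344G16Rik that overlap them.

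**Figure D4:**
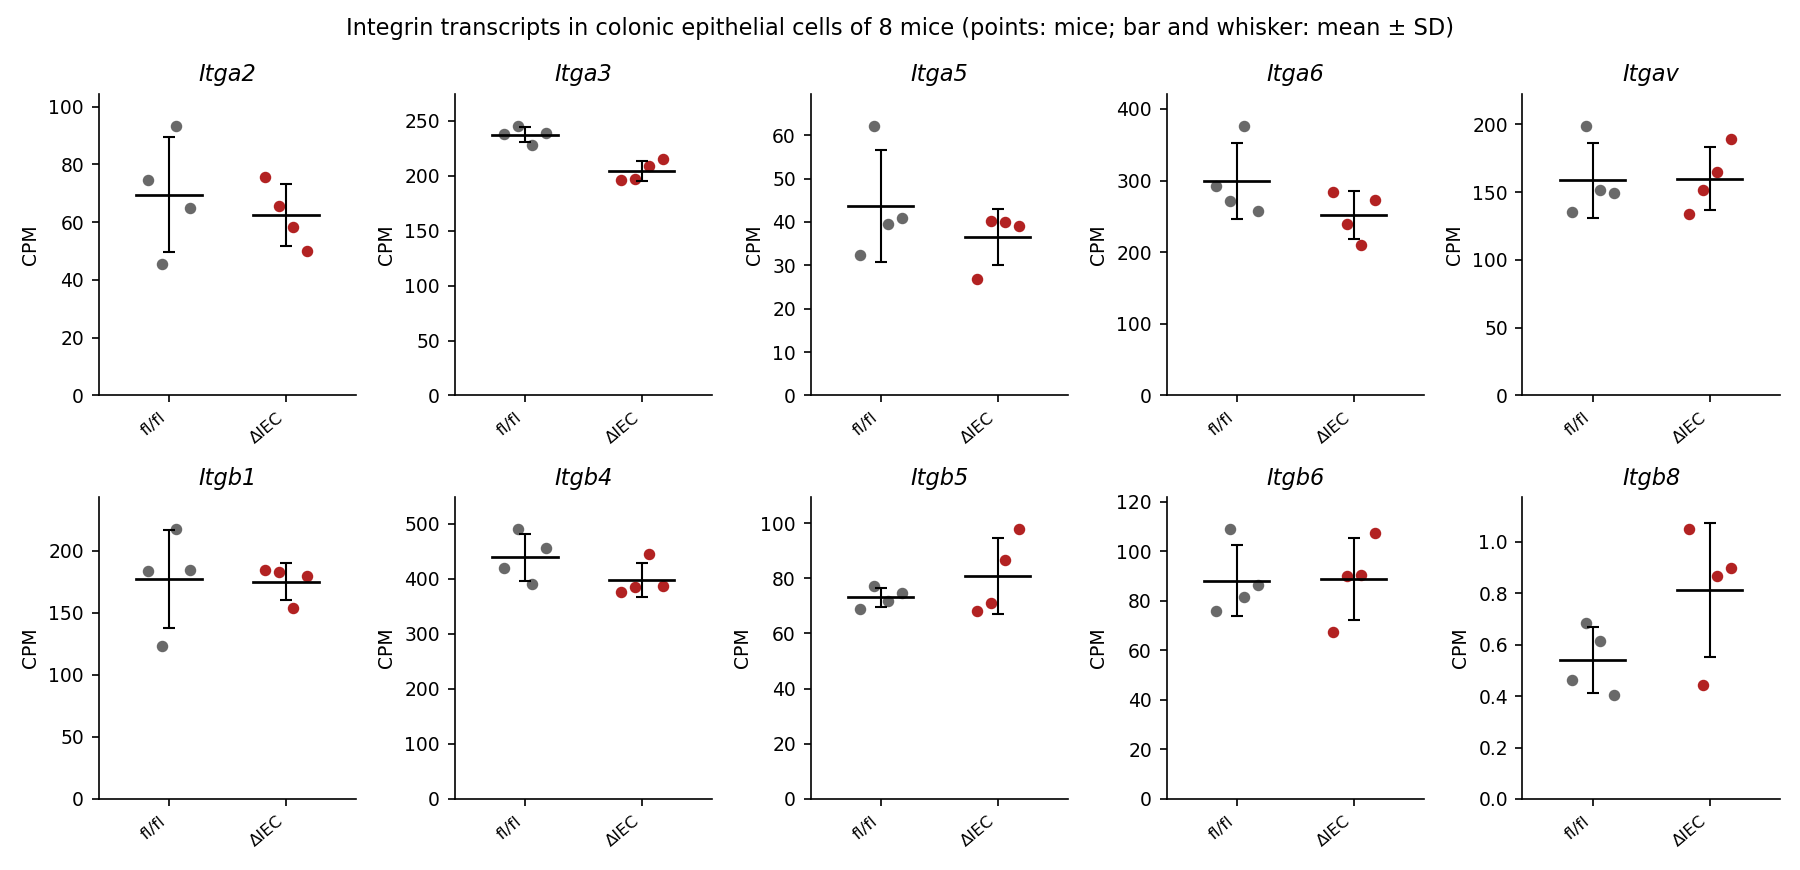
CPM of the 10 integrin genes in colonic epithelial cells of each mouse, 1 panel a gene, with an axis that starts at 0; points are mice (n = 4 per genotype), the bar is the mean and the whisker the SD. The genotypes are separate for Itga3 and overlap for the other 9 genes.

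The mouse colon used the chains in another proportion than Caco-2 cells. Per kb, Itgb4 ranked first in fl/fl mice at 62.6 ± 6.08 CPM per kb, followed by Itgb1 (43.4 ± 9.59), Itga3 (41.6 ± 1.24), which overlapped with Itgb1, and Itga6 (33.2 ± 5.92). The ratio of Itgb4 to Itga6 was 1.95 ± 0.459 in fl/fl and 2.07 ± 0.453 in ΔIEC mice. Itgb6, the lowest of the 10 genes in Caco-2 cells, made up 36.1% ± 2.60 of the summed β5, β6 and β8 transcripts in fl/fl and 34.1% ± 2.47 in ΔIEC mice. The species were prepared, sequenced and annotated separately, so these levels are given side by side without a test.

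Among the fixed lists in mice, 2 genes passed, 1 of 17 adaptors tested and 1 of 9 other integrin subunits tested (0.691% of all genes passed). Tns2, a tensin of adhesion sites, was higher in ΔIEC cells (68.1 ± 14.6 compared with 27.5 ± 3.12 CPM, log2 fold change 1.31 ± 0.15, edgeR adjusted p = 0.00246). Itga4, the α chain of the leukocyte integrins α4β1 and α4β7, was lower (0.480 ± 0.107 compared with 1.27 ± 0.183 CPM, log2 fold change -1.39 ± 0.25, edgeR adjusted p = 0.0319), and its call was lost when any of the 8 mice was left out (edgeR adjusted p from 0.0521 to 0.119). The summed leukocyte markers were between 5.36 and 10.49 CPM in fl/fl and between 9.43 and 11.1 CPM in ΔIEC mice, and the summed stromal and endothelial markers between 35.5 and 42.2 and between 27.9 and 36.1 CPM. Their part in these differences was not tested. No laminin, other ligand, TGF-β, hemidesmosome, kinase or trafficking gene passed, out of 8, 8, 5, 4, 13 and 10 tested, and Lama3 and Lamb3 had log2 fold changes of -0.08 and 0.01.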

How the data were processed

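RNA-seq read counts per gene were deposited by the authors, a table per library. Per the labels, stranded total RNA libraries were sequenced as paired reads of 75 bases (Caco-2) or 50 bases (mouse). The submitters' processing notes name Trim Galore 0.4.4, cutadapt, STAR 2.5.2b, featureCounts 1.5.2, GRCh38 and GRCm38. Per the file headers, the human counts came from featureCounts 1.5.2 with reverse strand counting and the mouse counts from version 1.6.4 without strand, so antisense reads enter mouse counts. Counts were not normalized. Mapped reads per replicate vary, and low genes such as ITGB6 are the least precise. The third DNMT3A1 replicate was not analysed here.

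Human symbols were assigned to 56948 of 58051 gene IDs. Genes passing filterByExpr were tested per pair of groups with edgeR 4.0.16 (TMM, robust quasi-likelihood, R 4.3.3) and p-values were adjusted over all tested genes by Benjamini-Hochberg. An adjusted p under 0.05 was called. SE is the log2 fold change divided by the square root of F. CPM used TMM library sizes over all libraries of a species. On simulated counts with a log2 change of 1 this recovered 91.0% of 188 changed genes in a set of 16397 (ΔDNMT3A against WT) and 78.9% of 199 in a set of 14473 (mice), and 3.39% and 8.72% of the calls were false. For DNMT3A1 against DNMT3A2 87.0% of 200 were recovered in a set of 16369, with 5.95% of calls false. The simulation changed few genes and by a single size. In the data 62.4% of genes were called in ΔDNMT3A against WT, and no integrin reached a log2 fold change of 1 there. These rates therefore do not describe the smaller integrin changes. Alternatives were RLE or upper quartile scaling, no filter, DESeq2 1.42.0, a size threshold, removal of a length trend, a joint fit, a replicate block, lane as a covariate and leaving out each library. The members and gene lists were chosen with earlier results of these data known. All 10 members were named in each comparison, and from each list the most raised and most lowered called gene plus 12 fixed genes, with list genes named only in part outside ΔDNMT3A against WT and the isoform comparison. DST, CD151, VTN and TLN1 values beyond this rule were chosen after they were seen. Some genes that the rule names are not reported here.

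Same-numbered libraries of different lines had correlations of their deviations between -0.14 and 0.12, of which 1 of 21 exceeded 0.1, so the numbers were not treated as pairs. Counts between replicates differed by more than sampling noise in each pair (chi-square per degree of freedom from 1.83 to 5.10 in human and from 9.98 to 80.9 in mouse libraries), so each library counted once.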

Additional observations from a re-analysis of the deposited data

Results flagged for a closer look

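The change from ΔDNMT3A differed between the 2 isoform lines for 8 genes by the direct edgeR test of DNMT3A1 against DNMT3A2. The log2 differences, DNMT3A1 minus DNMT3A2, were 0.89 for ITGA3, 0.41 for ITGA5, 0.48 for ITGA6, 0.076 for ITGAV, -0.21 for ITGB1, 1.14 for ITGB4, -0.10 for ITGB5 and -0.60 for ITGB8. ITGA3, ITGA6 and ITGB1 moved in opposite directions from ΔDNMT3A in the isoform lines, each past the threshold in both. The largest of these contrasts at the level of single libraries was that of ITGB4.

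In 50 groups of 4 libraries, 3 had a value that stood apart from the other 3 by Dixon's criterion, and chance gives about 1 in 20. All 3 were in ΔIEC mice. Itga5 was lowest in replicate 1 at 26.9 CPM. Replicate 3 had the lowest Itgb1 value, 153.6 CPM, and the highest Itgb4 value, 444.0 CPM. None of the 3 genes was called in mice with any library left out.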

How the results depend on the processing

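Each count of called integrins stayed within 1.5 times its reported value under every alternative except the size threshold. Requiring a log2 fold change of at least 1 left 0 of 10 for ΔDNMT3A against WT, 0 for DNMT3A1 against ΔDNMT3A, 3 for DNMT3A2 against ΔDNMT3A, 2 for DNMT3A1 against WT, 3 for DNMT3A2 against WT and 1 for DNMT3A1 against DNMT3A2. Leaving out each library in turn gave 7 to 8, 6 to 8, 9 to 10, 8 to 9, 10 and 7 to 9 calls in the same order, and 0 in mice. Of 1060 values of a member under an alternative, 999 kept direction and call, 10 lost a call, 17 gained 1 and 34 changed sign. All sign changes were of uncalled genes. Their reported estimates were near 0, except that of Itga2 in mice (-0.156), which was 0.019 without fl/fl replicate 3. ITGA2 against ΔDNMT3A was called in several alternatives.

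The replicate block, with numbers that did not pair the libraries, turned ITGA2 in DNMT3A1 against ΔDNMT3A (-0.23, edgeR adjusted p = 1.39e-08) and ITGB6 in DNMT3A1 against DNMT3A2 (-0.69, edgeR adjusted p = 0.0256) into calls and ended no member's call.

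Sign changes were as follows, in log2 units. ITGB1 in ΔDNMT3A against WT was 0.001 without a filter, 0.010 without the length trend and 0.010 in the joint fit, and -0.013 to 0.007 with a library left out. ITGA5 in DNMT3A1 against ΔDNMT3A was -0.006 without the length trend. ITGB4 in DNMT3A1 against WT was -0.022 without the length trend, -0.006 with the replicate block, and -0.023 to 0.030 with a library left out. ITGA2 in DNMT3A1 against DNMT3A2 was -0.006 without a filter, -0.042 without the length trend, -0.001 with lane, and -0.036 to 0.034 with a library left out. In mice, upper quartile scaling gave -0.011 for Itgav and -0.012 for Itgb6, and leaving out a library gave -0.080 to 0.136 for Itgav, -0.094 to 0.126 for Itgb6, -0.158 to 0.096 for Itgb1 and -0.316 to 0.019 for Itga2. Their cause was not tested.

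Over all mouse genes edgeR called 101 and DESeq2 399. Depth limits ITGB6 in Caco-2 cells and Itgb8 in mice, and clones cannot be told apart from lines.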
